A study of Drosophila melanogaster with 12 samples.

Results

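Mitochondria translate the few proteins encoded by their own genome on a separate ribosome, whose RNAs come from mitochondrial DNA and whose proteins are encoded in the nucleus, made in the cytosol and imported. Drosophila symbols use mRpL for this ribosome's large subunit, which joins amino acids, and mRpS for its small subunit, which reads the messenger. Because nearly all products of this ribosome are subunits of the respiratory chain, its genes are commonly studied with those of cell growth and energy supply, and dividing disc cells depend on it. The 69 genes described here are all those of 13281 in the authors' deposited table whose symbol begins with mRpL or mRpS and a digit, 44 for the large and 25 for the small subunit. The members were chosen by name and not by a measured value. Their subunit was likewise read from the prefix alone, and the place of each protein in the ribosome was not checked.

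Eye discs, the epithelium of the larva from which the adult eye forms, were taken from Drosophila larvae of the third instar grown at 25 degrees Celsius and profiled on 12 Affymetrix arrays. All animals carried GMR-Gal4, which drives UAS transgenes in cells that the morphogenetic furrow, a wave of differentiation crossing the disc, has already passed, so RNA of a whole disc also holds cells without transgene expression. The 4 genotypes had 3 biological replicates each. They were the driver control (GMR-Gal4/+), miR-11 alone (GMR-Gal4/UAS-miR-11), dE2F1/dDP alone (GMR-Gal4/+; UAS-dE2F1,UAS-dDP/+) and all 3 transgenes (UAS-miR-11 over the GMR-Gal4 chromosome, with UAS-dE2F1,UAS-dDP/+). dE2F1 and dDP bind DNA as a pair and switch on genes of the cell cycle, and miR-11 is a microRNA encoded within the dE2F1 gene.

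For named genes the files give, per comparison with the control, an average log2 change, rank product p-values for each direction (higher and lower), and the pfp, an estimate of the false share among all genes ranked at or above that gene. The arrays themselves are given by probe set without gene names, so no value per array, SD or expression level can be given for a member. A member counts as called where the pfp for the sign of its change is under 0.05. All 3 comparisons use the same control arrays and are given side by side. In bulk tissue, fewer cells of a type and less RNA per cell cannot be told apart.

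The libraries differed within genotypes. The first principal component of the 18769 probe sets took up 63.1% of the variance. Differences between genotypes made up 22.7% of that component. Its score ranged from -9.33 to 49.8 in the control, from -34 to 83.3 with miR-11, from -49.9 to 34.4 with dE2F1/dDP and from -30.1 to 1.69 with all 3 transgenes, so the groups overlapped. In the authors' deposited table, Dp, the gene of dDP, stood at log2 2.85 with dE2F1/dDP, 2.73 with all 3 transgenes and -0.29 with miR-11, so its level follows the labels of dDP. E2f, the gene of dE2F1, stood at 0.34, 0.33 and 0.04 in the same order, none of them called, in the authors' deposited table. Mature miR-11 was not measured, so these values do not check the labels of dE2F1 and miR-11. Further genes were looked up for this check. The authors' deposited table has w called higher, at log2 2.35 under dE2F1/dDP and 2.58 under all 3 transgenes. Its value under miR-11 was 1.19, without a call. CycE reached 0.99 (dE2F1/dDP), 1.04 (all 3 transgenes) and -0.11 (miR-11) there, without a call. Whether these values follow from the transgenes was not tested.

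With dE2F1/dDP, nearly all mitochondrial ribosomal protein genes had a lower signal than in the control, by small amounts. Negative values were given for 43 of 44 large subunit genes (median log2 -0.38, a ratio of 0.77) and for 23 of 25 small subunit genes (median log2 -0.40, a ratio of 0.756), where 56.3% of all genes in the authors' deposited table were negative and their median was -0.03. With all 3 transgenes the count was 39 of 44 (median log2 -0.33) and 23 of 25 (median log2 -0.34), against 55.3% and a median of -0.03 over all genes. With miR-11 alone it was 24 of 44 (median log2 -0.01) and 15 of 25 (median log2 -0.05), against 56.3% and -0.03, a share near the background. The medians of the subunits lay within 0.1 of each other in every comparison.

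No member was called in any comparison. In the same order as above, the background of calls over all genes was 0.136% higher and 0.211% lower with dE2F1/dDP, 0.233% higher and 0.617% lower with all 3 transgenes, and 0.309% higher and 0.143% lower with miR-11. The smallest pfp of a member in the authors' deposited table was that of mRpS28, at 0.209 with dE2F1/dDP and 0.252 with all 3 transgenes. With miR-11 the smallest pfp of a member for the sign of its own change was 0.986, that of mRpS23, in the authors' deposited table. At an unadjusted rank product p under 0.05, 20 of 44 large and 13 of 25 small subunit genes were lower with dE2F1/dDP, against 6.85% of all genes. With all 3 transgenes these counts were 7 and 5, against 7.08%. With miR-11 they were 0 and 0, against 3.41%. For higher expression at the same p, the count over both subunits was 0 with dE2F1/dDP (6.03% of all genes), 0 with all 3 transgenes (7.4%) and 1 with miR-11 (3.52%).

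The low values were spread over the whole group. Of the 69 members, 63 lay in the lowest 25% of all genes with dE2F1/dDP, 53 with all 3 transgenes and 8 with miR-11, against 25.1%, 25.3% and 25.6% of all genes at or below that value. With dE2F1/dDP the large subunit genes ran from -0.62 to 0.13 and the small subunit genes from -0.80 to 0.18 on the log2 scale. With all 3 transgenes they ran from -0.65 to 0.09 and from -0.73 to 0.07. With miR-11 they ran from -0.18 to 0.23 and from -0.27 to 0.28. The SD between genes was 0.16 and 0.21 with dE2F1/dDP (0.33 over all genes). It was 0.19 and 0.21 with all 3 transgenes (0.32), and 0.10 and 0.12 with miR-11 (0.27). With all 3 transgenes the 25th to 75th percentiles of the large subunit ran from -0.42 to -0.13. That was about as wide as the -0.15 to 0.13 of all genes. The table gives no expression level, so the background could not be limited to genes expressed in the disc.

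**Figure D1:**
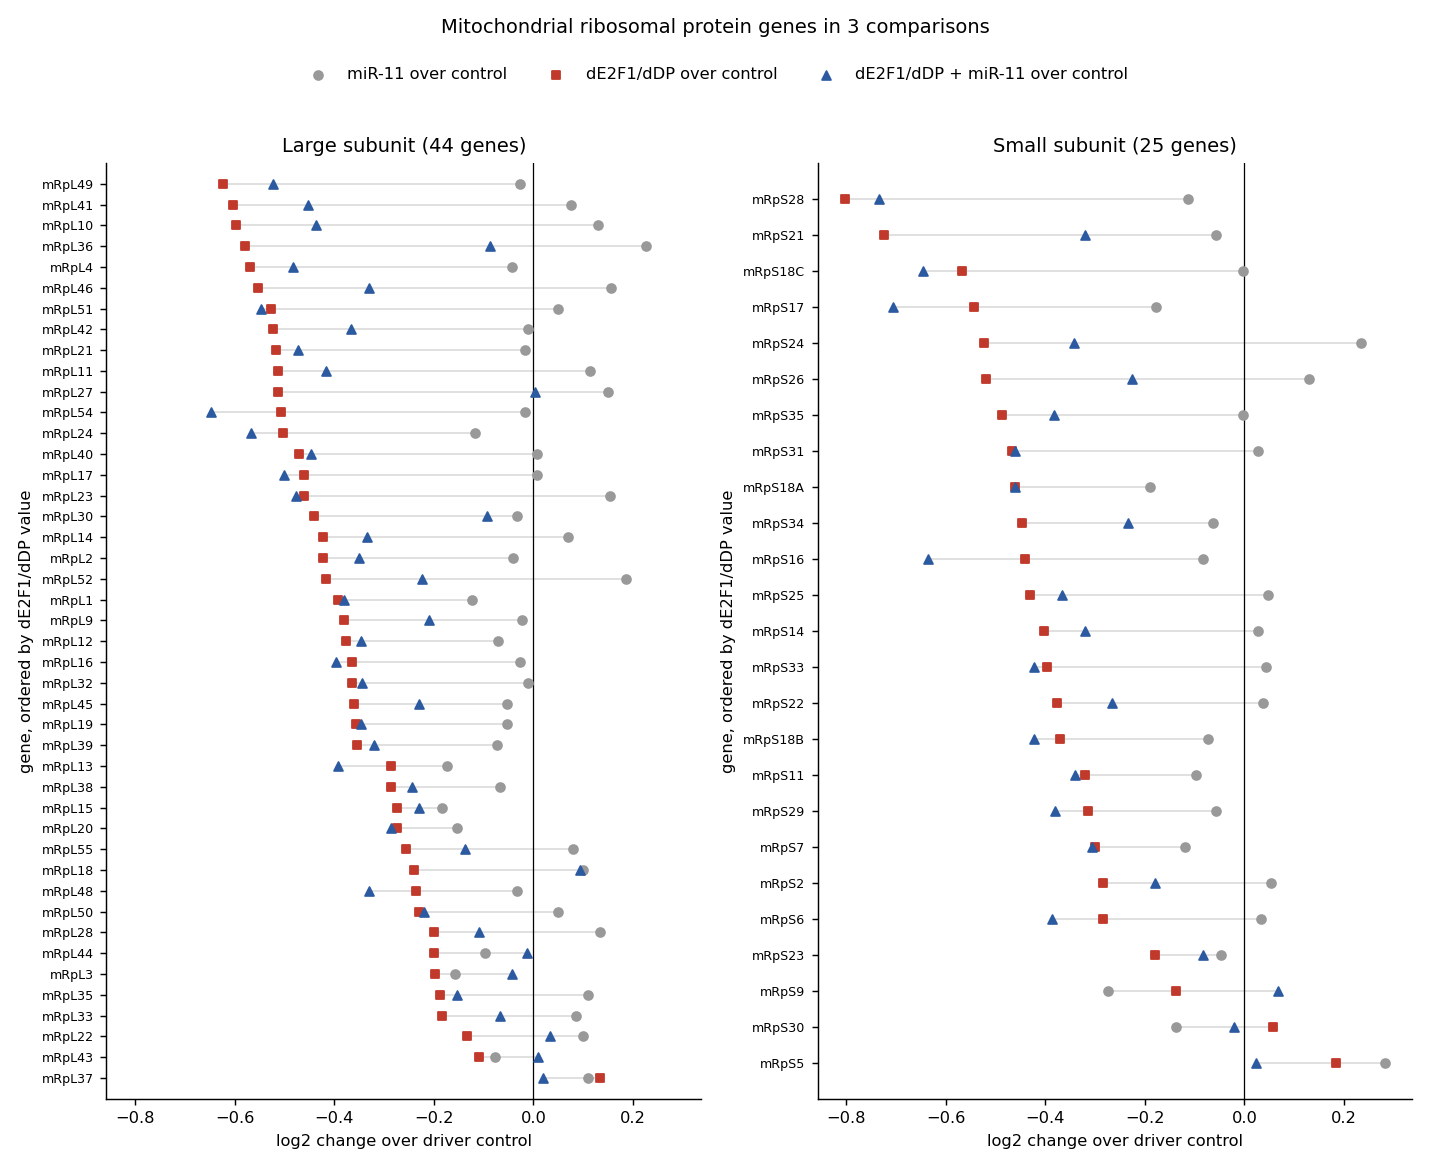
Log2 change over the driver control (horizontal axis) of each of the 44 large and 25 small subunit genes, ordered by the value with dE2F1/dDP. Grey circles are miR-11, red squares dE2F1/dDP and blue triangles all 3 transgenes, each the authors' average with no error available. Red squares lie left of 0 for 66 of the 69 genes, blue triangles for 62, and grey circles for 39.

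**Figure D2:**
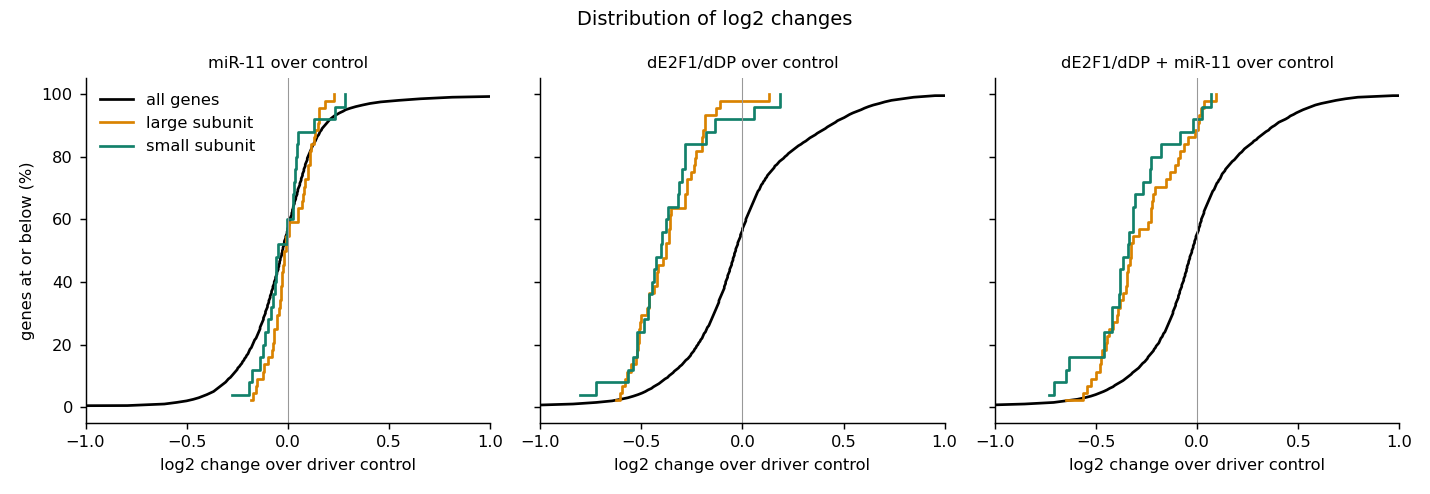
Share of genes (vertical axis, percent) at or below a log2 change over the driver control (horizontal axis, cut at -1 and 1), for all 13281 genes and for each subunit, in the 3 comparisons. With miR-11 the curves cross near 0. In the other comparisons both subunit curves lie left of the curve of all genes except in the lowest tail, with medians from -0.33 to -0.40.

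In the large subunit, the stalk proteins bind and steer the translation factors. The authors' deposited table gives mRpL12, whose Drosophila gene is known to be needed for growth driven by cyclin D and its kinase, at log2 -0.38 with dE2F1/dDP, -0.35 with all 3 transgenes and -0.07 with miR-11. mRpL10, which anchors mRpL12 to the ribosome, stood at -0.60, -0.44 and 0.13 in the same order in the authors' deposited table. mRpL11, at the base of the stalk, stood at -0.51, -0.42 and 0.11, and mRpL1, of the opposite stalk, at -0.39, -0.38 and -0.12 in the authors' deposited table. All 4 were therefore negative in both genotypes with dE2F1/dDP, and mRpL10 and mRpL11 were slightly positive with miR-11.

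The proteins of the core lie around the site where amino acids are joined, and those of the tunnel line the path of the new chain. mRpL2, a core protein, stood at log2 -0.42 with dE2F1/dDP, -0.35 with all 3 transgenes and -0.04 with miR-11 in the authors' deposited table. mRpL4, which reaches into the tunnel, stood at -0.57, -0.48 and -0.04 in the authors' deposited table. mRpL3, another core protein, was closer to the control than these with dE2F1/dDP, at -0.20, and with all 3 transgenes, at -0.04. With miR-11 it was farther from the control than these, at -0.16, in the same table. The tunnel proteins did not share 1 value. In the authors' deposited table mRpL23 and mRpL24, at the tunnel's exit, stood at -0.46 and -0.50 with dE2F1/dDP and at -0.48 and -0.57 with all 3 transgenes, while mRpL22 stood at -0.13 and 0.03.

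Proteins numbered up to 36 in the large subunit were taken as bacterial-type, and those with higher numbers as mitochondria-specific. The division rests on the number alone, and the counterpart of each protein was not checked. The division made little difference to the medians with dE2F1/dDP, which were -0.38 over the 27 bacterial-type genes, all negative, and -0.36 over the 17 others, of which 16 were negative. Among those others were the lowest large subunit values, mRpL49 at log2 -0.62 (p for lower expression 0.0067) and mRpL41 at -0.60 (p = 0.0101) with dE2F1/dDP, in the authors' deposited table. With all 3 transgenes the lowest were mRpL54 at -0.65 (p = 0.009), the bacterial-type mRpL24 at -0.57 (p = 0.0172) and mRpL51 at -0.55 (p = 0.0274) in the authors' deposited table. mRpL55, a protein without a bacterial counterpart, was at -0.26 with dE2F1/dDP and -0.14 with all 3 transgenes in the same table.

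A few large subunit genes departed from the rest. mRpL37 was the only one with a positive value with dE2F1/dDP, at log2 0.13 (p for higher expression 0.2519), and stood at 0.02 with all 3 transgenes and 0.11 with miR-11 in the authors' deposited table. mRpL43 was nearest below it, at -0.11, 0.01 and -0.08 in the authors' deposited table. With miR-11 the extremes were mRpL36, at 0.23 (p for higher expression 0.081), mRpL52 at 0.19 and mRpL46 at 0.16, and at the other end mRpL15 at -0.18 and mRpL13 at -0.17 in the authors' deposited table. In the comparisons for which they are named in this paragraph, none of these had a p under 0.05 in either direction.

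In the small subunit, mRpS28 had the lowest value in both genotypes with dE2F1/dDP. The authors' deposited table gives it log2 -0.80 (p for lower expression 0.0015) with dE2F1/dDP, -0.73 (p = 0.0041) with all 3 transgenes and -0.11 with miR-11. mRpS21, a bacterial-type protein, was next with dE2F1/dDP, at -0.72 (p = 0.0024), and less far below the control with all 3 transgenes, at -0.32, in the authors' deposited table. mRpS17, whose bacterial counterpart binds ribosomal RNA early in assembly, stood at -0.54 with dE2F1/dDP and -0.71 (p = 0.0046) with all 3 transgenes, and mRpS16 at -0.44 and -0.64 (p = 0.0092), in the authors' deposited table.

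Drosophila has 3 genes for proteins related to bacterial S18. In the authors' deposited table mRpS18A stood at log2 -0.46 both with dE2F1/dDP and with all 3 transgenes, mRpS18B at -0.37 and -0.42, and mRpS18C at -0.57 (p for lower expression 0.0105) and -0.65 (p = 0.0104). With miR-11 they stood at -0.19, -0.07 and -0.00 in the same table. All 3 were thus below the control in each genotype with dE2F1/dDP, and their differences from one another have no test.

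Of the mitochondria-specific proteins with the prefix mRpS, mRpS29 is the counterpart of the human GTP-binding protein DAP3, and mRpS30 that of human PDCD9. Both human genes were first described in cell death. mRpS29 stood at log2 -0.31 with dE2F1/dDP, -0.38 with all 3 transgenes and -0.06 with miR-11 in the authors' deposited table. mRpS30 was near the control throughout, at 0.06, -0.02 and -0.14 in the authors' deposited table. Along with mRpS5, it was the only gene with the prefix mRpS and a positive value with dE2F1/dDP. mRpS5, whose bacterial counterpart lies where the messenger enters, stood at 0.18 with dE2F1/dDP, 0.02 with all 3 transgenes and 0.28 with miR-11 in the same table. mRpS2, another bacterial-type protein, stood at -0.28, -0.18 and 0.05 in the authors' deposited table.

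With miR-11, mRpS24 was the member with the only p under 0.05, at log2 0.23 (p for higher expression 0.0457, with 0.2365 for lower expression) in the authors' deposited table. mRpS9 was the lowest member there, at -0.27, and the highest of the small subunit with all 3 transgenes, at 0.07, in the authors' deposited table. After mRpS5 and mRpS24, mRpS26 was highest of the small subunit with miR-11, at 0.13, and mRpS18A and mRpS17 were lowest after mRpS9, at -0.19 and -0.18, in the same table. None of them was called.

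The table holds 3 further mitochondrial ribosomal protein genes under other symbols, found through current names and not counted among the members. Rlc1, now mRpL47, stood at log2 -0.63 with dE2F1/dDP and -0.63 with all 3 transgenes in the authors' deposited table. tko, which encodes the S12 protein and whose Drosophila mutants have seizures on mechanical shock, stood at -0.56 and -0.57 in the authors' deposited table. bonsai, which encodes the S15 protein, stood at -0.08 and 0.02 in the same table. With miR-11 the values of Rlc1, tko and bonsai were 0.08, 0.04 and -0.24 in the authors' deposited table.

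All 3 transgenes were also set against dE2F1/dDP alone, by subtracting the table's log2 changes, which removes the shared control and has no test. The median difference was 0.08 over the large subunit, with 34 of 44 genes higher with all 3 transgenes, and 0.01 over the small subunit, with 13 of 25 higher. Over all genes the median was -0.00 and 48.8% were higher. Differences of members ran from -0.20 for mRpS16 to 0.52 for mRpL27, a protein whose bacterial counterpart reaches the peptidyl transfer site. mRpL27 stood at log2 -0.51 (p for lower expression 0.013) with dE2F1/dDP and 0.00 with all 3 transgenes in the authors' deposited table, and mRpL36 at -0.58 (p = 0.0085) and -0.09. After these came mRpS21, higher by 0.40, mRpL30, higher by 0.35, and mRpL18, higher by 0.33. All 3 transgenes against miR-11 alone gave a median of -0.29 over the large and -0.35 over the small subunit, with 41 of 44 and 23 of 25 genes negative, where 52.4% of all genes were negative.

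The p-values also show how evenly members ranked over the array comparisons. The cause of uneven ranks was not tested. A rank product gives a gene a low p in both directions when it ranks high in some array comparisons and low in others. Both p-values were under 0.4 for 32 of the 69 members with miR-11, against 10.3% of all genes. With dE2F1/dDP this held for 9 members, against 3.54%, and with all 3 transgenes for 1 member, against 2.67%. A shift of most members in the same direction also lowers this count, so it does not order the comparisons by evenness. In the authors' deposited table tko, outside the members, shows the pattern with miR-11, with a p of 0.1439 for higher and 0.1936 for lower expression. A median near 0 with miR-11 thus covers members that ranked unevenly over the array comparisons. The first component scores also spread most widely with miR-11 (23.3 ± 58.7, SD, n = 3), against 12.9 ± 32.2 in the control, -20.1 ± 47.3 with dE2F1/dDP and -16.1 ± 16.2 with all 3 transgenes. Its part in the members' values was not tested.

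**Figure D3:**
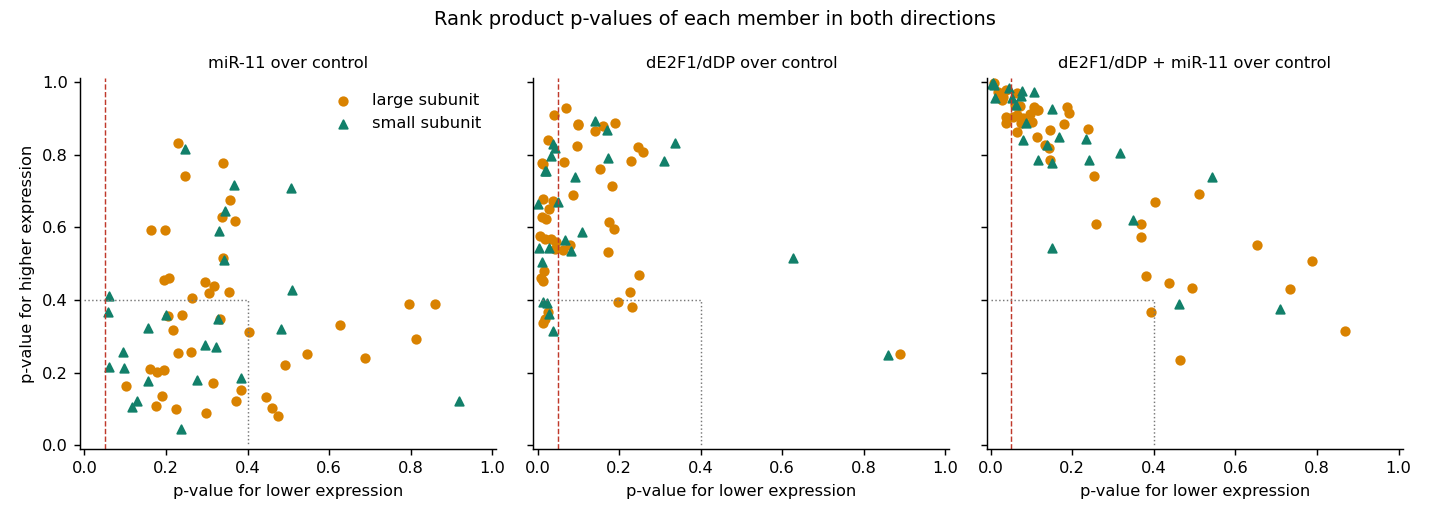
Rank product p-value for lower (horizontal axis) against that for higher expression (vertical axis) of each member in the authors' deposited table, large subunit as orange circles and small subunit as green triangles. Left of the dashed line, the value under which lower expression is counted, lie 33 members with dE2F1/dDP, 12 with all 3 transgenes and 0 with miR-11. The dotted box marks both p-values under 0.4, which holds 32, 9 and 1 members with miR-11, dE2F1/dDP and all 3 transgenes.

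Other genes of mitochondrial gene expression were compared as lists. Over all genes, 56.3% were negative with dE2F1/dDP, 55.3% with all 3 transgenes and 56.3% with miR-11. Of 8 factors that start, extend or end mitochondrial translation, 6 were negative with dE2F1/dDP (median log2 -0.24). With all 3 transgenes 6 were negative (median -0.22) and with miR-11 7 (median -0.07). Of these factors 0 were called, where 0.136% to 0.617% of all genes were called per direction and comparison. The means of this list were closer together, at -0.17, -0.21 and -0.16. Lowest of this list in the authors' deposited table was EfTuM, the elongation factor Tu of mitochondria, at -0.38 with dE2F1/dDP. With all 3 transgenes it was CG12736, now mEFTu2, at -0.44 (p for lower expression 0.0277), and with miR-11 CG4567, now mEFG1, at -0.45. Highest in the authors' deposited table were CG13163, now mIF3, at 0.13 with dE2F1/dDP, and CG4447, now mRRF1, at 0.08 with all 3 transgenes. With miR-11 the highest was EfTuM, at 0.09 in the authors' deposited table. Of the 16 enzymes that load mitochondrial tRNAs, 13 were negative with dE2F1/dDP (median -0.18), 11 with all 3 transgenes (median -0.16) and 15 with miR-11 (median -0.13). The enzyme for aspartate, CG31739, was an exception, at 0.55 with dE2F1/dDP and 0.59 with all 3 transgenes in the authors' deposited table. Genes that copy, transcribe or process mitochondrial DNA and RNA had 10 of 12 negative with dE2F1/dDP (median -0.18), 9 with all 3 transgenes (median -0.18) and 8 with miR-11 (median -0.10). DNApol-gamma35, the accessory subunit of the mitochondrial DNA polymerase, was lowest, at -0.47 (p = 0.0323) and -0.52 (p = 0.0217) in the authors' deposited table.

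Nuclear genes for subunits of the respiratory complexes had a median near that of the members with dE2F1/dDP and one nearer 0 with all 3 transgenes, without a test of that difference. Of 66 such genes 58 were negative with dE2F1/dDP (median log2 -0.30), with 14 lower and 0 higher at p under 0.05 against 6.85% of all genes for lower. With all 3 transgenes 39 were negative (median -0.07), against 55.3% of all genes, with 0 lower and 4 higher at that p, against 7.08% and 7.4%. With miR-11 24 were negative (median 0.03), against 56.3%. CG12400, now ND-B14.5B and a subunit of complex I, stood at -0.72 (p for lower expression 0.0032) with dE2F1/dDP in the authors' deposited table. blw, the alpha subunit of the ATP synthase, stood the other way at 0.42 with dE2F1/dDP and 0.80 (p for higher expression 0.0038) with all 3 transgenes in the authors' deposited table. With miR-11 blw stood at -0.31 (p for lower expression 0.0271, with 0.1421 for higher expression) in the authors' deposited table. Import and chaperone genes had 11 of 15 negative with dE2F1/dDP (median -0.11), 9 with all 3 transgenes (median -0.10) and 8 with miR-11 (median -0.04). These shares were 73.3%, 60% and 53.3%, against 56.3%, 55.3% and 56.3% of all genes. In this list Roe1, a chaperone cofactor, stood at -0.78 (p for lower expression 0.0012) with all 3 transgenes in the authors' deposited table. It was also lowest of the list with miR-11, at -0.48 (p for lower expression 0.0164), in the authors' deposited table.

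The ribosomal proteins of the cytosol stood close to the control in all 3 comparisons. Of 74 genes, 53 were negative with dE2F1/dDP, but their median was -0.04 and 8 of them lay in the lowest 25% of all genes, against 63 of the 69 mitochondrial members. With all 3 transgenes 51 were negative (median -0.05), and with miR-11 51 (median -0.02). RpS5b stood highest with dE2F1/dDP, at log2 0.67, and RpS19b lowest, at -0.43, in the authors' deposited table. Regulators of growth and ribosome making had a median of 0.11 with dE2F1/dDP (10 of 17 positive), 0.04 with all 3 transgenes (9 positive) and -0.08 with miR-11 (6 positive). CG9809, now srl, the Drosophila PGC-1 homologue and a regulator of mitochondrial genes, was the highest of that list, at 0.66 with dE2F1/dDP (p for higher expression 0.0417) and 0.44 with all 3 transgenes in the authors' deposited table. With dE2F1/dDP it was 1 of 17 genes higher at p under 0.05, near the 6.03% of all genes, and its pfp was 0.7107. Among all these comparison lists, 0 genes were called, where 0.136% to 0.617% of all genes were called per direction and comparison. At that share, lists of this size hold few or no calls.

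**Figure D4:**
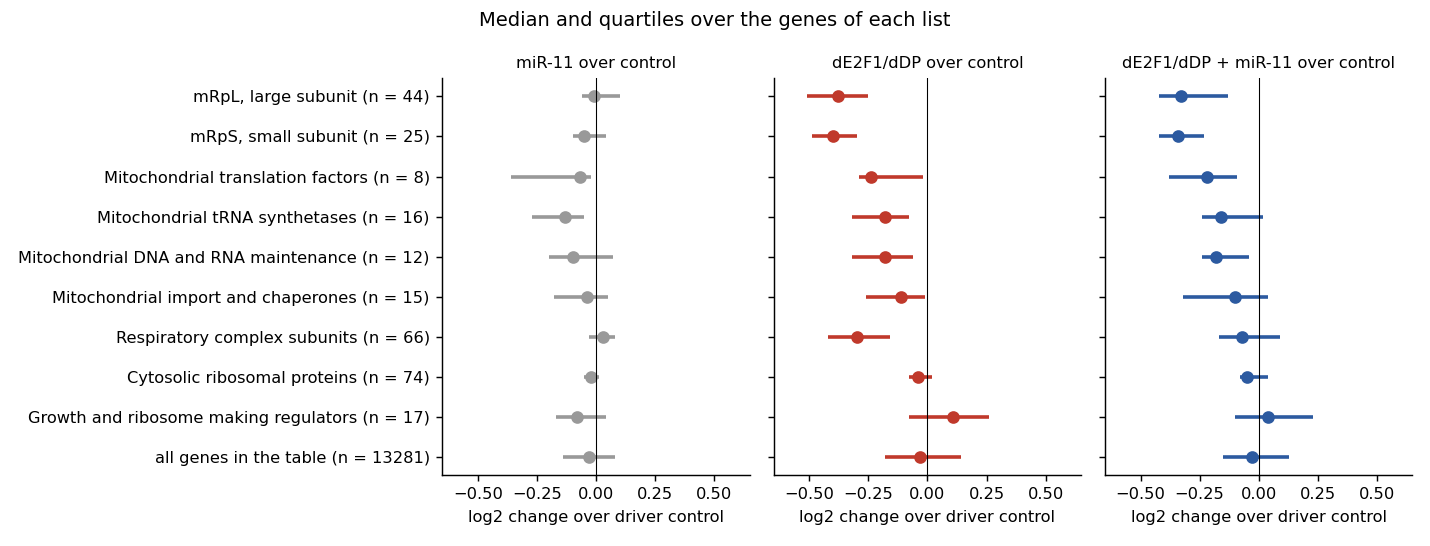
Log2 change over the driver control (horizontal axis) for the members by subunit, for 7 comparison lists and for all genes in the table. Points are medians over the genes of a list and bars run from the 25th to the 75th percentile. With dE2F1/dDP the medians were -0.38 and -0.40 for the mitochondrial ribosomal proteins, -0.30 for respiratory subunits and -0.04 for cytosolic ribosomal proteins.

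Markers of the disc and of other tissues moved in the same comparisons. Of 14 eye disc markers, 13 were positive with dE2F1/dDP (median log2 0.47), 13 with all 3 transgenes (median 0.34) and 7 with miR-11 (median -0.00). Muscle markers had a median of 0.80 with all 3 transgenes (10 of 11 positive), 0.17 with dE2F1/dDP and 0.11 with miR-11. Salivary gland markers had medians of 1.60 with miR-11 (9 of 9 positive), 0.86 with dE2F1/dDP (6 positive) and -1.52 with all 3 transgenes (0 positive). Fat body markers stood at a median of 1.20 with miR-11 (7 of 8 positive), -0.48 with dE2F1/dDP (2 positive) and -0.40 with all 3 transgenes (1 positive). Blood cell markers had medians of 0.46, 0.14 and -0.01 in the same order, with 4, 4 and 3 of 6 positive. Called with miR-11 were 3 salivary, 2 fat body and 1 blood cell marker as higher and 1 fat body marker as lower, against 0.309% and 0.143% of all genes. With dE2F1/dDP 2 salivary markers were called higher and 1 fat body marker lower (0.136% and 0.211%). Calls with all 3 transgenes were 2 muscle markers and 1 blood cell marker higher and 6 salivary markers and 1 fat body marker lower (0.233% and 0.617%). The fat body marker called lower was Obp44a in every comparison, so these calls rest on 1 gene. The authors' deposited table gives it log2 -1.68 (dE2F1/dDP), -1.47 (all 3 transgenes) and -1.42 (miR-11). Under miR-11 it was the only negative marker of that list. Whether Obp44a reports fat body in these samples was not tested. Both p-values were under 0.4 for 5, 6 and 6 of the 9 salivary markers with miR-11, dE2F1/dDP and all 3 transgenes. Over all genes the shares were 10.3%, 3.54% and 2.67%. In that order it held for 3, 1 and 5 of the 8 fat body and 6, 5 and 0 of the 11 muscle markers. It held for 1, 3 and 2 of the 6 blood cell and 5, 0 and 0 of the 14 eye disc markers. Several of these medians thus also rest on markers that ranked unevenly over the array comparisons. Summed levels of these lists cannot be given without named probe sets, and their part in the members' values was not tested.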

How the data were processed

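Total RNA was labelled from 100 ng per array, per the labels, and the submitters' processing notes name only affy, an R package, with no version or settings given in the sources used here. Deposited array values are in log2 expression per probe set. The log2 fold changes, p-values and pfp are the authors' rank product results per gene, per the file headers, in a table without values per array. All 301 genes with a change of 1 or more on the log2 scale in either direction had a probe set within 0.01 of all 3 changes, and 0 had one after rotating the comparisons. Probe sets were not named from their values, so the planned limma fit on members was replaced by the table's values, and p-values rest on 3 arrays a genotype, whose number limits the precision. Replicates are called biological in the labels, with no word on separate crosses.

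Members, lists and tests were chosen with earlier results of these data known. The counts by unadjusted p and by both p-values, and the division by protein number, were chosen after their values were seen. Symbols of all 69 members, and 12802 of the table's genes, matched a RefSeq gene table (Release 6 plus ISO1 MT), used for names and gene order. The symbol qm was dropped from the cytosolic list, since the table names it a geranylgeranyl pyrophosphate synthase. Genes named were the 3 highest and 3 lowest members of each subunit and comparison, a fixed set of members by role, and genes at the ends of each list (some left out for space); mRpL4, mRpL23, mRpS16, mRpS21 where not at an end, mRpL27, mRpL30 and CG31739 were partly added after their values were seen. Summaries used Python 3.11.15 with pandas 2.3.3 and numpy 2.4.6.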

Additional observations from a re-analysis of the deposited data

How the results depend on the processing

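Calls stayed at 0 in both subunits and all 3 comparisons at a pfp under 0.1 or 0.01, with the table's p-values doubled and Benjamini-Hochberg adjusted over all genes (smallest member value 0.223), and with tko, bonsai and Rlc1 added. All 24 counts, those fixed in advance at 0.01 included, were equal to those reported. The 18 alternative medians (centred on all genes, mean for median, the same genes added) were all within 0.1 log2 of those reported. Centring shifts a median only by that of all genes, -0.03 in each comparison, so it could not pass that bound. Centring moved the large subunit median with miR-11 across 0, from -0.01 to 0.01. At an unadjusted p under 0.01, the members lower were 2 large and 2 small with dE2F1/dDP (2.16% of all genes), 1 and 3 with all 3 transgenes (2.54%) and 0 and 0 with miR-11 (0.941%). Under 0.1 they were 28 and 17 (11.1%), 16 and 11 (12.1%) and 0 and 5 (7.03%). Members with both p-values low at bounds of 0.3 and 0.5 numbered 19 and 46 with miR-11 (5.17% and 17.9% of all genes), 0 and 14 with dE2F1/dDP (1.66% and 7.66%) and 0 and 6 with all 3 transgenes (0.964% and 5.95%). No paired analysis was possible because the table has no column per array. For the same reason, other normalizations, filters on dim probe sets, fits on fewer groups and leaving out single arrays were not run, and no member's result could be given without a library.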

Other observations

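The genes next to the members in the RefSeq gene order had medians near that of all genes. Over 138 flanking genes found in the table, the median log2 change was -0.04 with dE2F1/dDP, with 82 negative (59.4%, where all genes gave 56.3%) and 11 lower at p under 0.05 (7.97%, against 6.85%). The median with all 3 transgenes was -0.03, with 74 negative (53.6%, against 55.3%) and 12 lower (8.7%, against 7.08%). With miR-11 it was -0.07, with 93 negative (67.4%, against 56.3%) and 2 lower (1.45%, against 3.41%). The members themselves lie apart from one another, with 0 pairs adjacent among the genes of the table. This comparison was added after the members' values were seen and has no test.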
